A study of Mus musculus with 12 samples.

Results

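PPAR gamma, encoded by Pparg, and 9 genes of lipid droplets and fatty acid uptake (Cidea, Cideb, Cidec, Plin2, Plin4, Plin5, Cd36, Mogat1 and Fabp4) were followed through bulk RNA-seq of sorted mouse hepatocytes. The set is 10 of the 54839 features in the table. Pparg was selected on its CCl4-against-oil changes, which had been seen to go in opposite directions in Tom+ and Tom- cells, and the other 9 genes were chosen by their known function with earlier results of these data in view. For this reason, every value of Pparg, and every CCl4-against-oil value of the set, is given as a description with no p-value. Counts of genes past the threshold are printed beside the share over all genes, and nothing is read from those that include these values.

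The 12 libraries formed 4 groups of 3. Hepatocytes came from male p16-Tom mice on a C57BL/6 background, which carried p16-CreERT2 and R26-CAG-LSL-tdTomato-WPRE in the heterozygous state in all groups. Tamoxifen-inducible Cre driven by p16 switches on the red reporter tdTomato (Tom) in cells that use the p16 promoter when tamoxifen is given, so the reporter records that promoter and not cell identity. Mice received corn oil, the vehicle, or CCl4, a toxic solvent whose damage falls mainly on pericentral hepatocytes, at 1 mL/kg in a scheme of 4 weeks. Tamoxifen at 80 mg/kg was part of the scheme for oil and CCl4 mice alike, and the age of the mice was not given in the sources used here. Tom+ and Tom- cells of each treatment were sorted and sequenced as polyA RNA, which gives the groups Tom- oil, Tom+ oil, Tom- CCl4 and Tom+ CCl4. The labels number the libraries but do not say that they came from separate mice, so p-values measure only the spread between these libraries.

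Total counts ranged from 37568584 to 75331424 per library. Across the libraries, 3 counts, the most that a count of 0 allows, stood for 0.0369 to 0.0829 CPM (TMM-normalized counts scaled to library size), for counting error only. All 8 hepatocyte markers were detected in every group, with sums of 103972 to 152547 CPM. Of the 6 adipocyte markers, Lep and Retn had 0 counts in all groups. Lipe had 300 to 828 counts per library, and Adipoq, Plin1 and Cfd had counts in some libraries, at most 4, 6 and 18. The reporter went against the label in 2 oil libraries. It was at 1794 CPM in Tom- oil replicate 1, where the other Tom- oil libraries were at 157 and 143 CPM, and at 135 CPM in Tom+ oil replicate 2, where the other Tom+ oil libraries were at 1546 and 1225 CPM. Labels were kept, and the values of the set without this pair are given after those of the single genes. In bulk RNA of this kind, fewer cells of a type and less RNA per cell cannot be told apart.

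PPAR gamma is a nuclear receptor that binds fatty acids, pairs with RXR and drives the storage of fat in adipocytes. It is low in normal hepatocytes and is known to rise in fatty liver, where its targets include genes of droplet coats and fatty acid uptake. Lipid droplets hold triacylglycerol under a coat of perilipins (Plin genes), CIDE proteins join droplets or load lipid onto lipoproteins, Cd36 and Fabp4 take up and carry fatty acids, and Mogat1 makes diacylglycerol for storage.

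The PPAR gamma and RXR pair binds direct repeats of AGGTCA with a single spacer base, and the promoter sequences of the set are shown for this reason. RefSeq promoter windows of GRCm38.p6, the build of mm10, run from 250 bases before to 50 bases after the start, and 8 of the 10 genes had at least 1 window, with 12 windows in all (Cidea and Fabp4 had none). The letters AGGTCANAGGTCA were searched on both strands with at most 2 mismatches over the 12 fixed bases. Such a match was in 3.86% of all 32851 windows and in the windows of Mogat1, Plin2 and Cd36, while the exact repeat was in 13 windows and in none of this set. The stretches around the 3 matches read as follows on the strand of the gene, with the matched 13 bases in capitals.
Mogat1 (chr1:78510985-78511045, plus strand): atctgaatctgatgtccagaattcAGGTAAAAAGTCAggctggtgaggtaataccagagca
Plin2 (chr4:86670248-86670308, minus strand): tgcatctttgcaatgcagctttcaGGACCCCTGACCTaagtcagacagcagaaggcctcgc
Cd36 (chr5:17835923-17835983, minus strand): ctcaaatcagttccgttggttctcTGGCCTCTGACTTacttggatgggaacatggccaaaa
The Mogat1 match lies on the strand of the gene, and those of Plin2 and Cd36 lie on the opposite strand. The single unit AGGTCA, which is also counted inside any repeat, was in 16.3% of all windows and in 6 of the 12 windows of the set. These belong to 4 of the 8 genes, Pparg, Plin2, Plin5 and Cd36. Pparg has 3 windows, and those of Plin5 overlap each other. A match describes these letters only and is not evidence of binding.

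Levels per length placed the genes in a wide range. In TPM (counts per length, scaled to a fixed total per library), the order of the means over the 12 libraries was Plin2, Cideb, Plin5, Cd36, Plin4, Pparg, Cidec, Fabp4, Mogat1 and Cidea. By the median of the 12 libraries, Pparg (6.08 TPM) and Plin4 (6.07 TPM) changed places. Plin2 lay between 163 and 273 TPM and Cideb between 174 and 202 TPM. Plin5 followed at 69.1 to 108 TPM and Cd36 at 13.7 to 63.4 TPM. Pparg, at 3.17 to 11.3 TPM, was thus expressed far below the main coat genes. Within Tom+ oil and Tom- CCl4 the ranges of Plin2 and Cideb overlapped, and those of Pparg and Plin4 overlapped in both oil groups. Pparg stood above Plin4 without overlap in Tom+ CCl4 and below it without overlap in Tom- CCl4. Among the low genes, the ranges of Cidec overlapped those of Mogat1 in both oil groups and those of Fabp4 in both CCl4 groups, and Mogat1 overlapped Fabp4 in Tom+ oil and Cidea in Tom+ CCl4. The length deposited for Fabp4 was 4489 bases, its whole span on the chromosome, so its TPM is a level per that length.

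**Figure D1:**
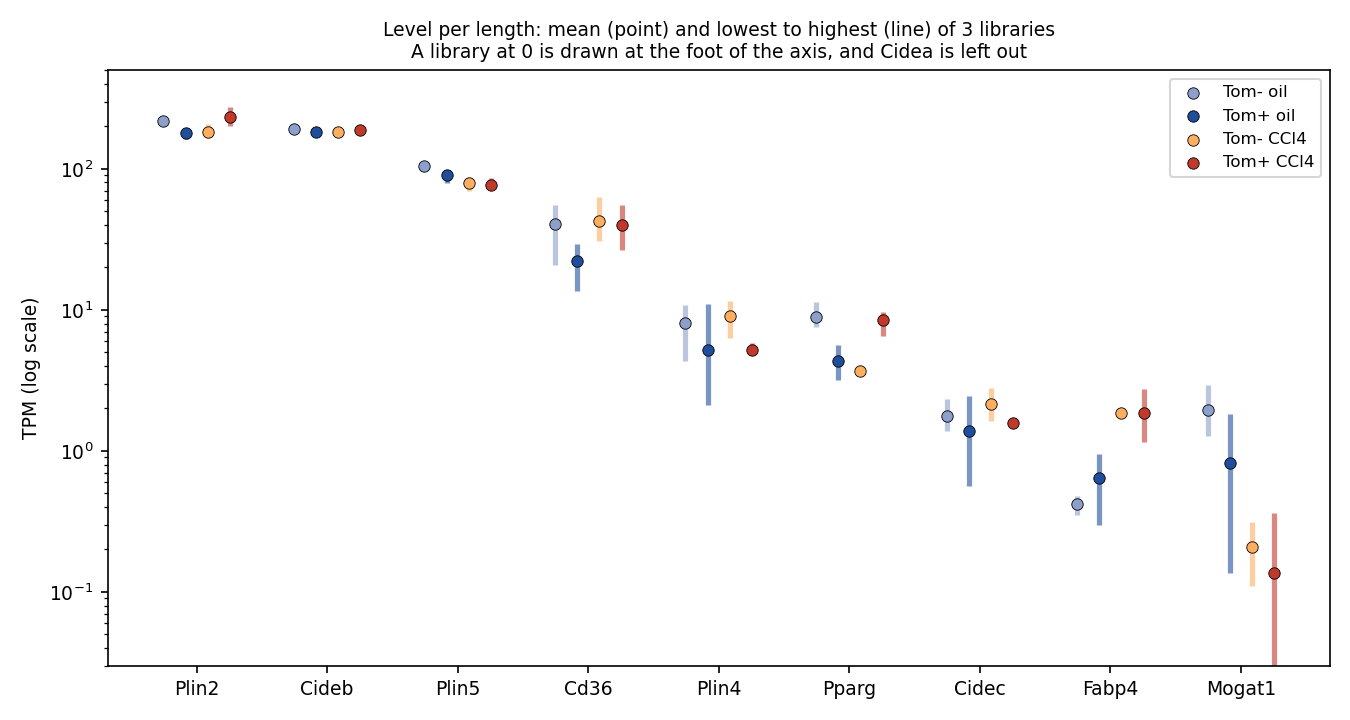
TPM on a log axis for 9 genes in the 4 groups, with the mean of 3 libraries as a point and the lowest to highest library as a line; Cidea is left out and a library at 0 is drawn at the foot of the axis. Plin2 and Cideb share the top near 200 TPM, and Pparg and Plin4 change places between Tom- CCl4 and Tom+ CCl4.

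Pparg (chr6:115360951-115490399) was at 9.81, 13.9 and 9.34 CPM in Tom- oil and at 3.86, 7.14 and 5.39 CPM in Tom+ oil. In Tom- CCl4 it was at 4.601, 5.17 and 5.09 CPM and in Tom+ CCl4 at 10.8, 10.5 and 7.83 CPM. The Tom- oil and Tom+ CCl4 libraries were the 6 highest, and every library of the other groups lay below them. The mean was 11.0 ± 2.53 CPM in Tom- oil, 5.46 ± 1.64 CPM in Tom+ oil, 4.95 ± 0.308 CPM in Tom- CCl4 and 9.70 ± 1.63 CPM in Tom+ CCl4 (SD, n = 3 each). As a log2 fold change, Tom+ against Tom- was 0.97 (SE 0.22) in CCl4 and -1.02 (SE 0.22) in oil. CCl4 against oil was -1.16 (SE 0.22) in Tom- cells and 0.83 (SE 0.22) in Tom+ cells. The difference between the fractions was 1.99 (SE 0.31) on the log2 scale, and Tom+ was above Tom- in 3 of 3 same-numbered pairs in CCl4 and in 0 of 3 in oil.

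A gene was called at an adjusted p under 0.05 and a log2 fold change beyond 0.75. For Pparg the fitted values are given here without a p-value. Where its calls are counted below, they are a description and nothing is read from them. Over the alternative fits, its log2 fold change between the fractions lay between 0.88 and 1.10 in CCl4 and between -1.35 and -0.81 in oil. CCl4 against oil lay between -1.26 and -0.95 in Tom- and between 0.63 and 1.08 in Tom+, where the lowest value was that without Tom+ oil replicate 1. The difference between the fractions lay between 1.78 and 2.31.

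Markers of the liver zones also differed between the groups. The 8 zone 3 markers, which mark hepatocytes near the central vein, summed to 1913 to 5022 CPM in Tom- oil and 744 to 2459 CPM in Tom+ oil. Their sums were 1311 to 2215 CPM in Tom- CCl4 and 3091 to 4147 CPM in Tom+ CCl4. As for Pparg, the mean sums were higher in Tom- oil and Tom+ CCl4 than in the other groups. The ranges of the oil groups overlapped and those of the CCl4 groups did not, and none of the 8 was at 0 in any group. The sums mostly reflect the zone 3 marker Cyp2e1, which alone was at 1519 to 3427 CPM in Tom- oil. Gene by gene, the median log2 fold change of CCl4 against oil was 0.069 in Tom- (1 called lower), where Pparg was at -1.16. In Tom+ this median was 1.96 (4 called higher), where Pparg was at 0.83. For Tom+ against Tom- in oil the median was -1.09 (0 called), where Pparg was at -1.02. For the difference between the fractions the median was 2.30 (0 called), where Pparg was at 1.99. Of the 8, 4 had an unadjusted p under 0.05 for this difference, as had 3178 of all genes. Between the fractions in CCl4, edgeR called 0 of the 8, of which 3 had an unadjusted p under 0.05. The median log2 fold change of the 8 was 1.38, where Pparg was at 0.97. The 8 zone 1 markers had 4 called lower and a median of -0.92 there. With DESeq2, the study itself reported zonation markers, such as Glul, Lgr5, Cyp2e1, Hal and Sds, among the genes that differed between these fractions in CCl4. The part of zonation in the levels of Pparg was not tested.

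The 5 genes whose pattern was most like that of Pparg were sought among 13061 genes by Pearson's correlation of log2(CPM + 0.5) over the 12 libraries. Among them were Cyp2e1 (r = 0.90), a cytochrome P450 that metabolizes CCl4 and is itself a zone 3 marker, Fam107b (0.89), Ube2h (0.89), a ubiquitin-conjugating enzyme, and Aldh1a1 (0.89), a retinaldehyde dehydrogenase. The points share libraries of the same groups and numbers, so r is a description. Cyp2e1 was at 2331 ± 985 CPM in Tom- oil, 1051 ± 537 CPM in Tom+ oil, 1163 ± 232 CPM in Tom- CCl4 and 2314 ± 262 CPM in Tom+ CCl4. Fam107b was at 47.2 ± 3.97, 37.4 ± 1.99, 29.8 ± 1.84 and 45.9 ± 1.26 CPM in the same order. Among the other tested genes of the set, r with Pparg was 0.48 for Mogat1, 0.34 for Cd36, 0.34 for Plin2 and -0.37 for Fabp4, and it lay between -0.20 and 0.018 for Cideb, Cidec, Plin4 and Plin5.

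**Figure D2:**
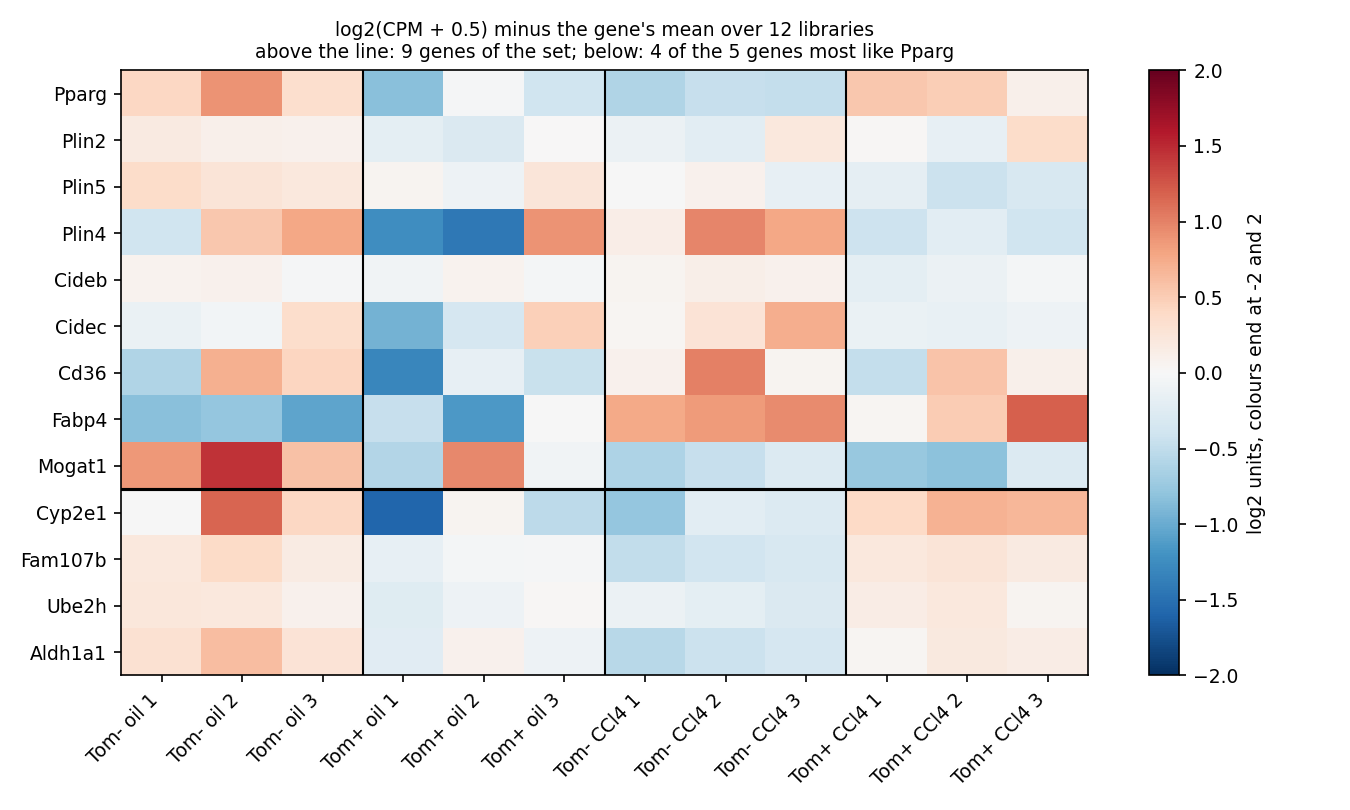
Each row is a gene and each column a library, and the colour gives log2(CPM + 0.5) minus the mean of the gene over 12 libraries. Pparg and the 4 genes drawn below the line are higher on average in Tom- oil and Tom+ CCl4 than in the other groups. Single libraries depart from this, such as Tom- oil replicate 1 for Cyp2e1 and Tom+ CCl4 replicate 1 for Aldh1a1.

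Between Tom+ and Tom- cells of CCl4-treated mice, Plin4, Plin5, Cideb and Cidec were lower in Tom+ without overlap but did not pass the test. Of the 9 genes tested, 1 was called higher (Pparg) and 0 lower, where 0.222% of all 17121 genes tested were called higher and 1.74% lower. The groups did not overlap for 1 gene that was higher (Pparg) and 4 that were lower (Plin4, Plin5, Cideb and Cidec), where 14.1% of all genes were higher and 14.6% lower without overlap. In the same comparison 5 of the 8 endothelial markers were called lower, with a median log2 fold change of -0.83 and sums of 272 to 297 CPM in Tom- and 144 to 193 CPM in Tom+, and their part in the lower values of the set was not tested. Libraries of one number varied together between the fractions, and with the replicate block the shares called over all genes were 0.736% higher and 3.25% lower. In oil, 0 of the 9 genes were called, as were 0% of all genes in each direction, and the block called 0.0642% of all genes higher and 0.169% lower. Pparg and Plin2 were lower without overlap in oil and 0 genes were higher, where the shares over all genes were 5.57% lower and 6.11% higher. At an unadjusted p under 0.05 in oil, edgeR gave 1198 of all genes and, of the set, Pparg alone, which was selected on these libraries. DESeq2 called 17 of all genes in oil.

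**Figure D3:**
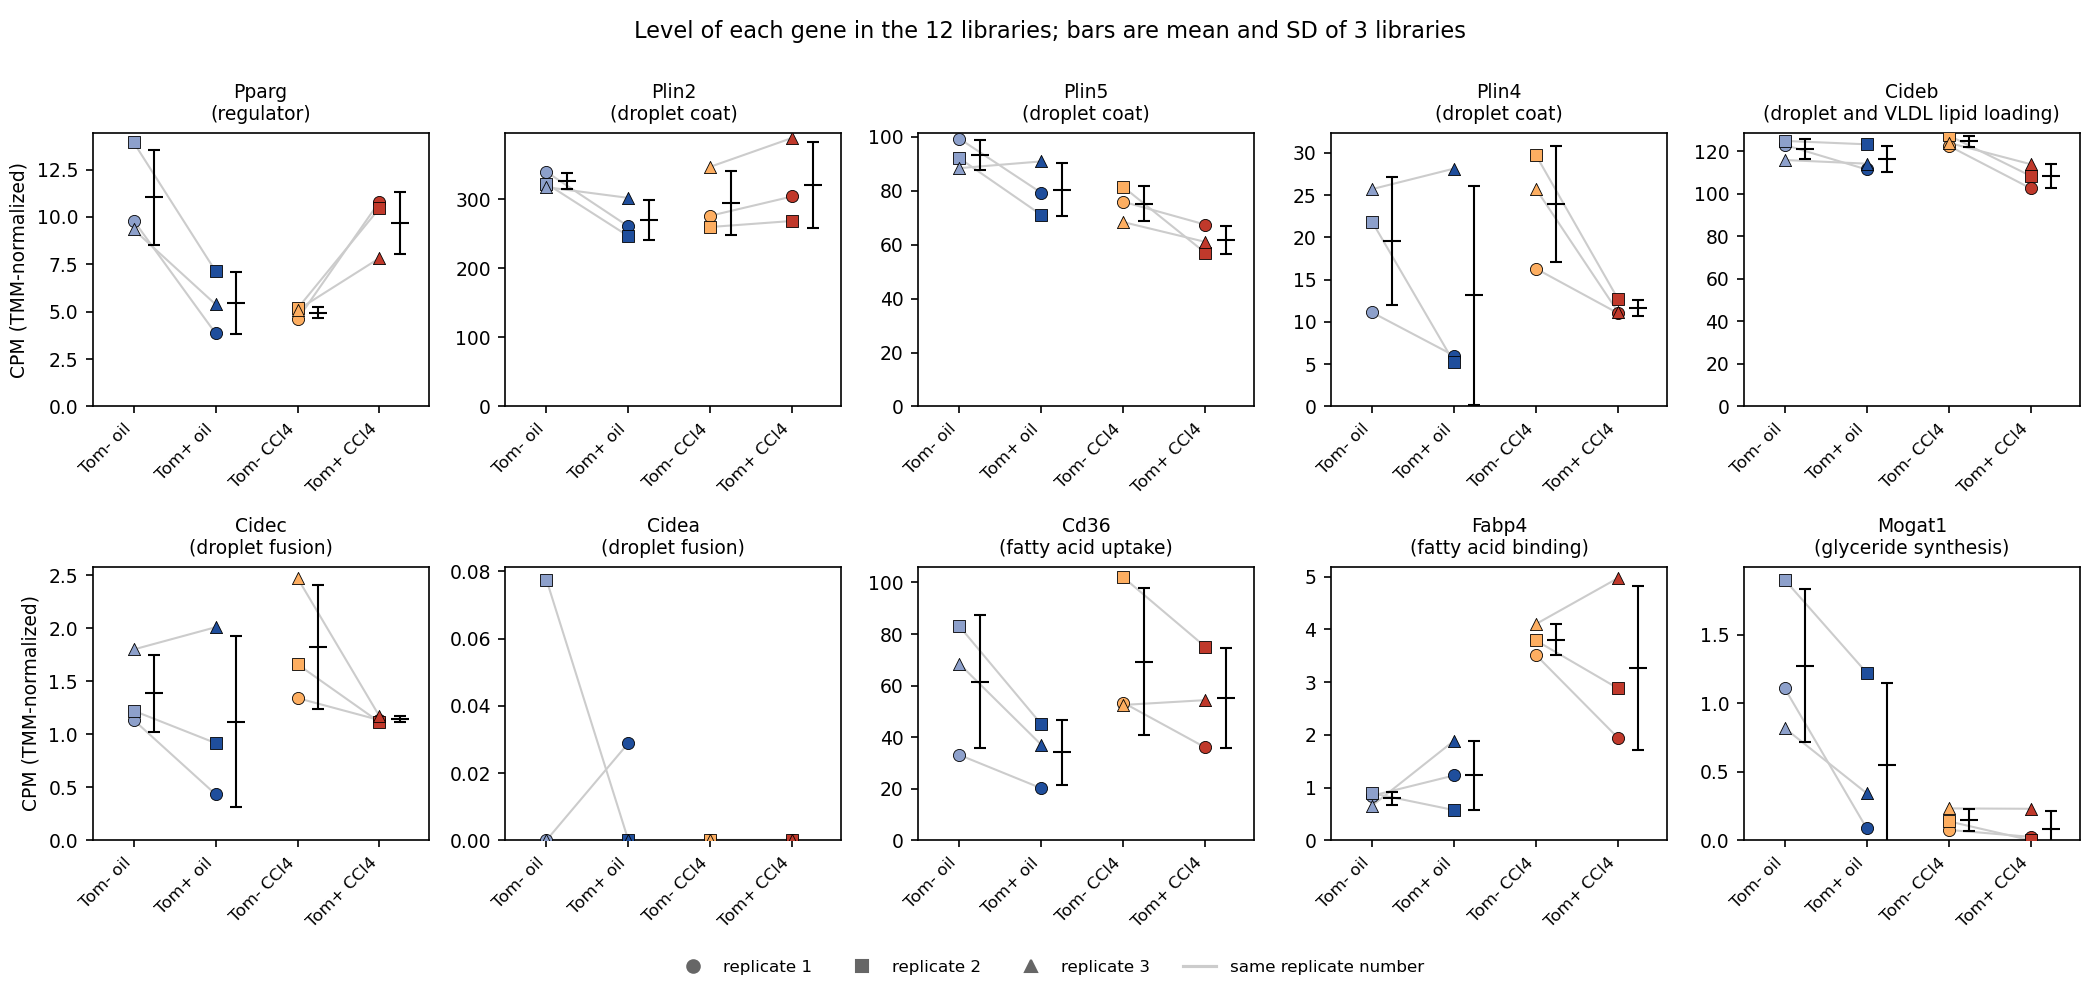
CPM in each of the 12 libraries, 1 panel a gene, with replicate numbers as symbols, grey lines between Tom- and Tom+ libraries of one number, and the mean and SD of 3 libraries beside the points (none for Cidea). Pparg is high in Tom- oil and Tom+ CCl4, Fabp4 is high and Mogat1 low in both CCl4 groups, and Cideb stays between 103 and 127 CPM.

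Among the coat genes, Plin2 (chr4:86648386-86670060), which covers droplets in most cells, was at 276, 260 and 347 CPM in Tom- CCl4 and at 304, 269 and 389 CPM in Tom+ CCl4. The groups overlapped, although Tom+ was higher in 3 of 3 pairs, and the log2 fold change was 0.12 (SE 0.14, adjusted p = 0.654 by edgeR), which turned to -0.039 without Tom+ CCl4 replicate 3. In oil, Plin2 was at 340, 323 and 318 CPM in Tom- and at 261, 247 and 302 CPM in Tom+. Every Tom+ oil library lay below every Tom- oil library, yet the log2 fold change of -0.28 (SE 0.14) did not pass (adjusted p = 0.740 by edgeR). With CCl4, the change from oil was -0.15 (SE 0.14) in Tom- and 0.25 (SE 0.14) in Tom+, with overlapping groups. The means were 327 CPM in Tom- oil, 270 CPM in Tom+ oil, 294 CPM in Tom- CCl4 and 321 CPM in Tom+ CCl4, so that Plin2, like Pparg, was higher on average in Tom- oil and Tom+ CCl4, and its difference between the fractions was 0.40 (SE 0.20).

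Plin5 (chr17:56111601-56117596), which ties droplets to mitochondria in cells that burn fat, was at 75.9, 81.5 and 68.4 CPM in Tom- CCl4 and at 67.5, 57.1 and 61.1 CPM in Tom+ CCl4. The Tom+ libraries were all lower, by a log2 fold change of -0.28 (SE 0.10, adjusted p = 0.126 by edgeR), and with the replicate block the adjusted p was 0.0488, with a value under the fold threshold. In oil it was at 99.4, 92.1 and 88.4 CPM in Tom- and at 79.3, 71.1 and 90.9 CPM in Tom+, which overlapped (log2 fold change -0.21, SE 0.10, adjusted p = 0.726 by edgeR). Both CCl4 groups lay below the oil group of their own fraction without overlap, with log2 fold changes of -0.31 (SE 0.10) in Tom- and -0.38 (SE 0.10) in Tom+.

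Plin4 (chr17:56100591-56109803), a coat protein best known from adipocytes, varied most among the coat genes. It was at 11.1, 21.9 and 25.7 CPM in Tom- oil and at 6.02, 5.23 and 28.1 CPM in Tom+ oil, so that the third Tom+ oil library stood above all Tom- oil libraries. In CCl4 it was at 16.3, 29.7 and 25.7 CPM in Tom- and at 11.0, 12.8 and 11.2 CPM in Tom+. All Tom+ CCl4 libraries lay below all Tom- CCl4 libraries, but over the 12 libraries the log2 fold change of -1.04 (SE 0.62) did not pass (adjusted p = 0.368 by edgeR). Fitted on the 6 CCl4 libraries alone, it was called at -1.05 (SE 0.20, adjusted p = 0.0304 by edgeR). In oil the log2 fold change was -0.59 (SE 0.62, adjusted p = 0.891 by edgeR), and -1.80 without Tom+ oil replicate 3. The change from oil to CCl4 was 0.29 (SE 0.61) in Tom- and -0.16 (SE 0.62) in Tom+, and the latter was 1.05 without Tom+ oil replicate 3.

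Of the CIDE genes, Cideb (chr14:55754050-55758458), which is the form of hepatocytes and loads lipid onto very low density lipoprotein, was the steadiest gene of the set. It was at 123, 127 and 124 CPM in Tom- CCl4 and at 103, 108 and 114 CPM in Tom+ CCl4, without overlap. The log2 fold change was -0.20 (SE 0.076, adjusted p = 0.132 by edgeR), and with the replicate block the adjusted p was 0.0431, again under the fold threshold. In oil, at 123, 125 and 116 CPM in Tom- and 111, 123 and 114 CPM in Tom+, the groups overlapped (log2 fold change -0.060, SE 0.076, adjusted p = 0.908 by edgeR). From oil to CCl4 the log2 fold change was 0.040 (SE 0.076) in Tom- and -0.10 (SE 0.076) in Tom+.

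Cidec (chr6:113424634-113435760), which fuses droplets into larger ones, had 30 to 117 counts per library. It was at 1.34, 1.66 and 2.47 CPM in Tom- CCl4 and at 1.13, 1.11 and 1.17 CPM in Tom+ CCl4. All Tom+ CCl4 libraries were lower, with a log2 fold change of -0.68 (SE 0.43, adjusted p = 0.382 by edgeR). In oil it was at 1.13, 1.22 and 1.80 CPM in Tom- and at 0.433, 0.916 and 2.01 CPM in Tom+, where the lowest and the highest library were both Tom+ (log2 fold change -0.34, SE 0.44, adjusted p = 0.909 by edgeR). That value was 0.067 without Tom+ oil replicate 1 and -1.05 without Tom+ oil replicate 3. CCl4 against oil was 0.40 (SE 0.43) in Tom- and 0.051 (SE 0.44) in Tom+, the latter -0.35 without Tom+ oil replicate 1 and 0.77 without Tom+ oil replicate 3.

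Cidea (chr18:67343564-67367794), the form of brown fat, had 0 counts in 10 libraries, 4 counts in Tom- oil replicate 2 and 2 counts in Tom+ oil replicate 1. It was removed by the filter on low counts and was not tested, and no fold is given.

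Cd36 (chr5:17781690-17888801), a fatty acid translocase of hepatocytes, endothelial cells and macrophages, was at 33.1, 83.1 and 68.5 CPM in Tom- oil and at 20.2, 45.1 and 37.1 CPM in Tom+ oil. The groups overlapped, replicate 1 was the lowest library of each fraction, and Tom+ was lower in 3 of 3 pairs. The log2 fold change was -0.85 (SE 0.46, adjusted p = 0.771 by edgeR) without the block and -0.83 (SE 0.10, adjusted p = 0.00142 by edgeR) with the replicate block, so that Cd36 was called lower with the block. Pair 1 and pair 2 each hold a library of contrary reporter. With both of these libraries left out, the log2 fold change was -1.42 in the fit without the block. In CCl4, Cd36 was at 53.4, 102 and 52.5 CPM in Tom- and at 36.1, 75.1 and 54.4 CPM in Tom+, with overlap. The log2 fold change there was -0.33 (SE 0.45, adjusted p = 0.719 by edgeR), -0.32 (SE 0.099, adjusted p = 0.0401 by edgeR) with the replicate block, and 0.059 without Tom- CCl4 replicate 2. Its CCl4-against-oil value was 0.17 (SE 0.45) in Tom- and 0.69 (SE 0.46) in Tom+, and the groups overlapped. The value in Tom- was -0.22 without Tom- CCl4 replicate 2.

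Fabp4 (chr3:10204088-10208576), a fatty acid carrier of adipocytes, endothelial cells and macrophages, was at 0.844, 0.891 and 0.654 CPM in Tom- oil and at 1.23, 0.573 and 1.89 CPM in Tom+ oil. In CCl4 it was at 3.51, 3.79 and 4.10 CPM in Tom- and at 1.94, 2.88 and 4.97 CPM in Tom+. All 6 CCl4 libraries were higher than all 6 oil libraries. CCl4 against oil was 2.25 (SE 0.40) in Tom- and 1.41 (SE 0.39) in Tom+ on the log2 scale. The value in Tom+ was 0.98 without Tom+ CCl4 replicate 3 and 1.07 without Tom+ oil replicate 2. Tom+ against Tom- was -0.23 (SE 0.37, adjusted p = 0.766 by edgeR) in CCl4, 0.046 there without Tom+ CCl4 replicate 1, and 0.61 (SE 0.41, adjusted p = 0.808 by edgeR) in oil.

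Endothelial cells and macrophages also express Fabp4, and their markers were read in the same libraries. The 8 endothelial markers summed to 104 to 159 CPM in Tom- oil and 272 to 297 CPM in Tom- CCl4, and all 8 were called higher there. In Tom+ they summed to 118 to 195 CPM in oil and 144 to 193 CPM in CCl4, and edgeR called 0 of them (0 with an unadjusted p under 0.05). The 8 macrophage markers, of which edgeR called 0 in either fraction (0 in Tom- and 1 in Tom+ with an unadjusted p under 0.05), summed to 14.9 to 80.4 CPM in Tom- oil, 26.5 to 121 CPM in Tom+ oil, 103 to 129 CPM in Tom- CCl4 and 60.2 to 184 CPM in Tom+ CCl4. The 8 stellate cell markers went from sums of 8.84 to 24.4 CPM over the oil libraries to 50.4 to 103 CPM over the CCl4 libraries, with 7 called higher in Tom- and 6 in Tom+. No marker of these 3 lists was at 0 in a group. The adipocyte markers summed to 7.35 to 12.8 CPM over the 12 libraries, with 3 or 4 of the 6 at 0 in each group. The part of other cells in the levels of Fabp4 and Cd36 was not tested.

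Mogat1 (chr1:78510991-78538173), which acylates monoacylglycerol, had 0 to 98 counts per library and passed the filter mainly through the oil libraries. It was at 1.11, 1.90 and 0.817 CPM in Tom- oil and at 0.0867, 1.22 and 0.343 CPM in Tom+ oil. In CCl4 it was at 0.0758, 0.138 and 0.232 CPM in Tom- and at 0.0246, 0 and 0.2296 CPM in Tom+. Every Tom- CCl4 library lay below every Tom- oil library, whereas Tom+ oil replicate 1 lay within the range of Tom+ CCl4. As a description only, CCl4 against oil was -3.06 (SE 0.997) in Tom- and -2.74 (SE 1.05) in Tom+ on the log2 scale. In Tom- it was -2.65 without Tom- oil replicate 2 and -3.56 without Tom- CCl4 replicate 3. In Tom+ it was -4.95 without Tom+ CCl4 replicate 3 and -1.33 without Tom+ oil replicate 2. Tom+ against Tom- was -0.90 (SE 1.15, adjusted p = 0.689 by edgeR) in CCl4 and -1.22 (SE 0.88, adjusted p = 0.823 by edgeR) in oil.

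With both oil libraries of contrary reporter left out, Tom+ against Tom- in oil was -1.35 for Pparg, -2.73 for Mogat1, -1.42 for Cd36 and 0.98 for Fabp4 on the log2 scale. For Plin2 it was -0.20, for Plin4 -0.51, for Plin5 -0.0997, for Cideb -0.11 and for Cidec -0.35. Each kept its direction. CCl4 against oil in Tom- became -1.23 for Pparg, 2.30 for Fabp4, -3.15 for Mogat1 and -0.13 for Cd36. In Tom+ it became 1.08 for Pparg, 1.08 for Fabp4, -1.32 for Mogat1 and -0.058 for Cidec. Among the CCl4-against-oil values, those of Cd36 in Tom- and Cidec in Tom+ changed direction.

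Between CCl4 and oil, 1 of the 9 genes was called higher (Fabp4) and 1 lower (Pparg) in Tom-, where 6.33% of all genes were called higher and 1.59% lower. In Tom+, 2 were called higher (Pparg and Fabp4) and 0 lower, where 2.9% of all genes were called higher and 2.34% lower. Without overlap, 1 gene was higher (Fabp4) and 3 lower (Pparg, Plin5 and Mogat1) in Tom-, where the shares over all genes were 19.3% and 16.8%. In Tom+, 2 were higher (Pparg and Fabp4) and 1 lower (Plin5), where both shares were 14.6%. The difference between the fractions was called for 1 of the 9 genes (Pparg), and for 1.17% of all genes. As these contrasts were in view when the set was chosen, nothing is read from the counts. The comparisons share their libraries, as each group enters 2 of them.

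**Figure D4:**
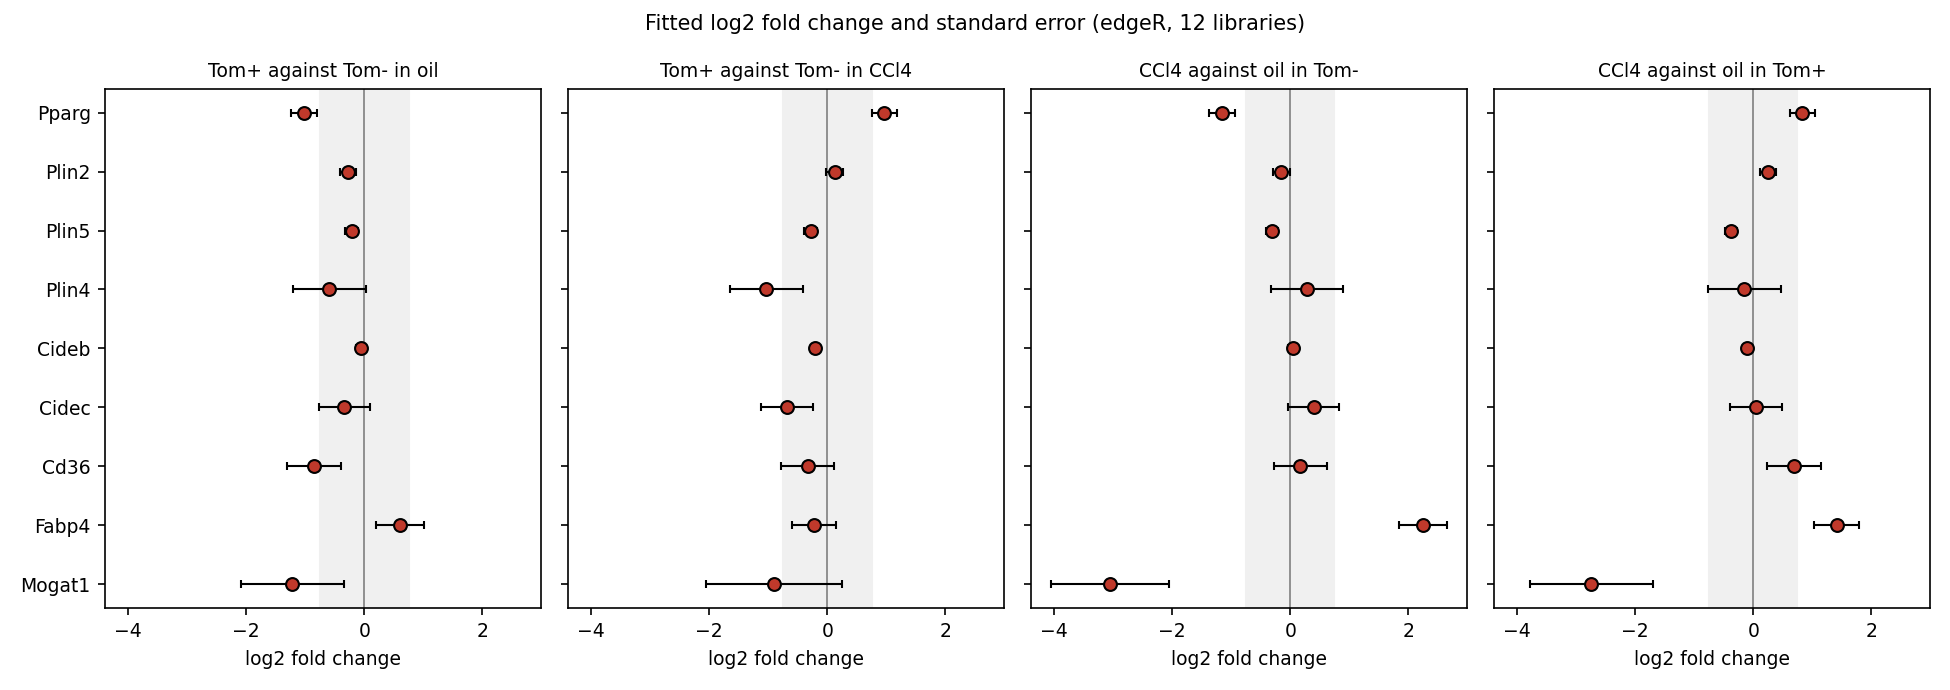
Fitted log2 fold changes of the 9 tested genes with standard errors in 4 comparisons; the grey band marks changes within 0.75. Pparg lies on opposite sides in oil and CCl4 and in Tom- and Tom+, Fabp4 lies to the right and Mogat1 to the left in both CCl4-against-oil panels, and Plin2, Plin5 and Cideb stay within the band.

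Other genes of the pathway, from 5 lists with 89 genes of which 78 were tested, were compared in the same fit. Between Tom+ and Tom- in CCl4, 2 rose and 2 fell, where 0.222% of all genes were called higher and 1.74% lower. Ppara, the fatty acid receptor of liver that drives oxidation, rose by 0.80 on the log2 scale (adjusted p = 0.0133 by edgeR), from 64.7, 46.1 and 56.5 CPM in Tom- to 115, 85.8 and 90.7 CPM in Tom+. Fabp5, a fatty acid carrier, rose by 0.78 (adjusted p = 0.00684 by edgeR). Hsd17b13, a droplet enzyme of hepatocytes, fell by 1.003 (adjusted p = 0.00129 by edgeR), and Agpat1, which acylates lysophosphatidic acid, fell by 0.78 (adjusted p = 0.0322 by edgeR). Each of these went the same way in 3 of 3 pairs. Hsd17b13 alone kept its call without Tom- CCl4 replicate 2 and without Tom+ CCl4 replicate 1, and Agpat1 also lost it without Tom- CCl4 replicate 1, Tom+ CCl4 replicate 2 or Tom+ CCl4 replicate 3. With the replicate block 6 were called, where the shares over all genes were 0.736% higher and 3.25% lower. Added were Vldlr, a receptor for triacylglycerol-rich lipoprotein, which rose by 2.23 (adjusted p = 0.000145 by edgeR), and Pnpla3, a droplet lipase, which fell by 0.83 (adjusted p = 0.0257 by edgeR). Vldlr was also called by limma-voom, on the 6 CCl4 libraries alone, without Tom+ oil replicate 2 and with both oil libraries of contrary reporter left out, and Dgat1, the last enzyme of triacylglycerol synthesis, without Tom- CCl4 replicate 3.

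By list, 1 of 23 PPARG partners and regulators rose, 0 of 8 adipocyte-type targets were called (3 with an unadjusted p under 0.05), 1 of 17 genes of the coat and lipolysis fell, 1 of 13 genes of triacylglycerol synthesis fell and 1 of 17 genes of fatty acid uptake rose. In this comparison, 3901 of all 17121 genes had an unadjusted p under 0.05 by edgeR. The medians of the 5 lists lay between -0.13 and 0.034 on the log2 scale, beside 0.0042 over all genes. In oil edgeR and DESeq2 called 0 of 78, where they called 0 and 17 of all 17121 genes. By edgeR, 15 of the 78 had an unadjusted p under 0.05, as had 1198 of all genes. The medians lay between -0.12 and 0.0026, beside 0.0070. With the replicate block 2 fell in oil, where the block called 0.0642% of all genes higher and 0.169% lower. They were Fitm1, which helps droplets bud (log2 fold change -0.82, adjusted p = 0.0251 by edgeR), and Vldlr (-1.57, adjusted p = 0.0417 by edgeR). Pair 1 and pair 2 of the oil libraries each hold a library of contrary reporter. Without Tom- oil replicate 3 and without the block Ppard was called.

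In Tom- cells, CCl4 against oil gave 6 pathway genes called higher and 3 called lower. Over all genes, 6.33% were called higher and 1.59% lower. The 6 include Slc2a4, which is given below as a description only. Lipoprotein lipase, Lpl, rose by 3.83 (adjusted p = 0.00724 by edgeR), from 0.791, 3.64 and 6.48 CPM to 29.5, 67.8 and 60.7 CPM. Pnpla3 rose by 3.79 (adjusted p = 0.000309 by edgeR), and Scd1, the desaturase that makes oleate, by 1.78 (adjusted p = 0.00611 by edgeR). Agpat1 and Fabp5 rose by 0.88 and 0.81, and the glucose transporter Slc2a4 went from 0, 0 and 0.0409 CPM to 0.404, 0.415 and 0.528 CPM. Slc2a4 passed the filter mainly through the CCl4 libraries and was not tested with at least 10 counts asked of every library, so its levels are a description. Fitm1 fell by 4.10 (adjusted p = 2.64e-05 by edgeR), from 10.5, 23.7 and 15.9 CPM to 1.21, 1.11 and 0.634 CPM, and Fabp2 fell by 1.16 (adjusted p = 0.00278 by edgeR). Calls were lost for Fabp5 without Tom- oil replicate 1, for Agpat1 without Tom- oil replicate 3, and for Fabp5 also without Tom- CCl4 replicate 3 or with both oil libraries of contrary reporter left out. The medians lay between -0.038 and 0.077, beside 0.0046 over all genes.

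In Tom+ cells, 5 rose and 4 fell, where 2.9% of all genes were called higher and 2.34% lower. Lpl rose by 4.32 (adjusted p = 0.00636 by edgeR), Fabp5 by 1.45 (adjusted p = 2.44e-05 by edgeR), Pnpla3 by 1.86 (adjusted p = 0.0136 by edgeR), Scd1 by 1.44 (adjusted p = 0.0211 by edgeR) and Vldlr by 3.28 (adjusted p = 0.0226 by edgeR). Fitm1 fell by 2.58 (adjusted p = 0.000428 by edgeR) and Hsd17b13 by 0.81 (adjusted p = 0.000605 by edgeR), and the PPAR coactivator Ppargc1b fell by 1.24 (adjusted p = 0.0172 by edgeR). Pnpla3, Scd1 and Vldlr lost their calls without Tom+ oil replicate 1, and these with Ppargc1b without Tom+ CCl4 replicate 3. Ppargc1b and Vldlr also lost theirs without Tom+ oil replicate 3 or Tom+ CCl4 replicate 2. Lpl is also a gene of macrophages, of whose 8 markers 0 were called in Tom+, where 6 of the 8 stellate cell markers were called higher. The sums of both lists are given above, and the part of other cells in the levels of Lpl was not tested. The medians lay between -0.077 and 0.31, beside 0.0020 over all genes.

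The effect of the fraction differed between CCl4 and oil for 1 of the 78 genes, where 1.17% of all genes were called. This gene was Hsd17b13 (difference -1.15 on the log2 scale, SE 0.16, adjusted p = 0.00738 by edgeR). It was at 334, 271 and 350 CPM in Tom- oil, 341, 342 and 376 CPM in Tom+ oil, 386, 406 and 417 CPM in Tom- CCl4 and 185, 192 and 226 CPM in Tom+ CCl4. The Tom+ CCl4 libraries thus stood below all others. With the replicate block 7 of the 78 were called, where the share over all genes was 5.48%. In oil, pair 1 and pair 2 each hold a library of contrary reporter. Vldlr (3.80), Fitm1 (1.49) and Ppara (0.81) were the 3 with a higher difference in CCl4, and Pnpla3 (-1.93), Hsd17b13 (-1.17), Srebf1 (-0.86) and Agpat1 (-0.79) were the 4 with a lower one.

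**Figure D5:**
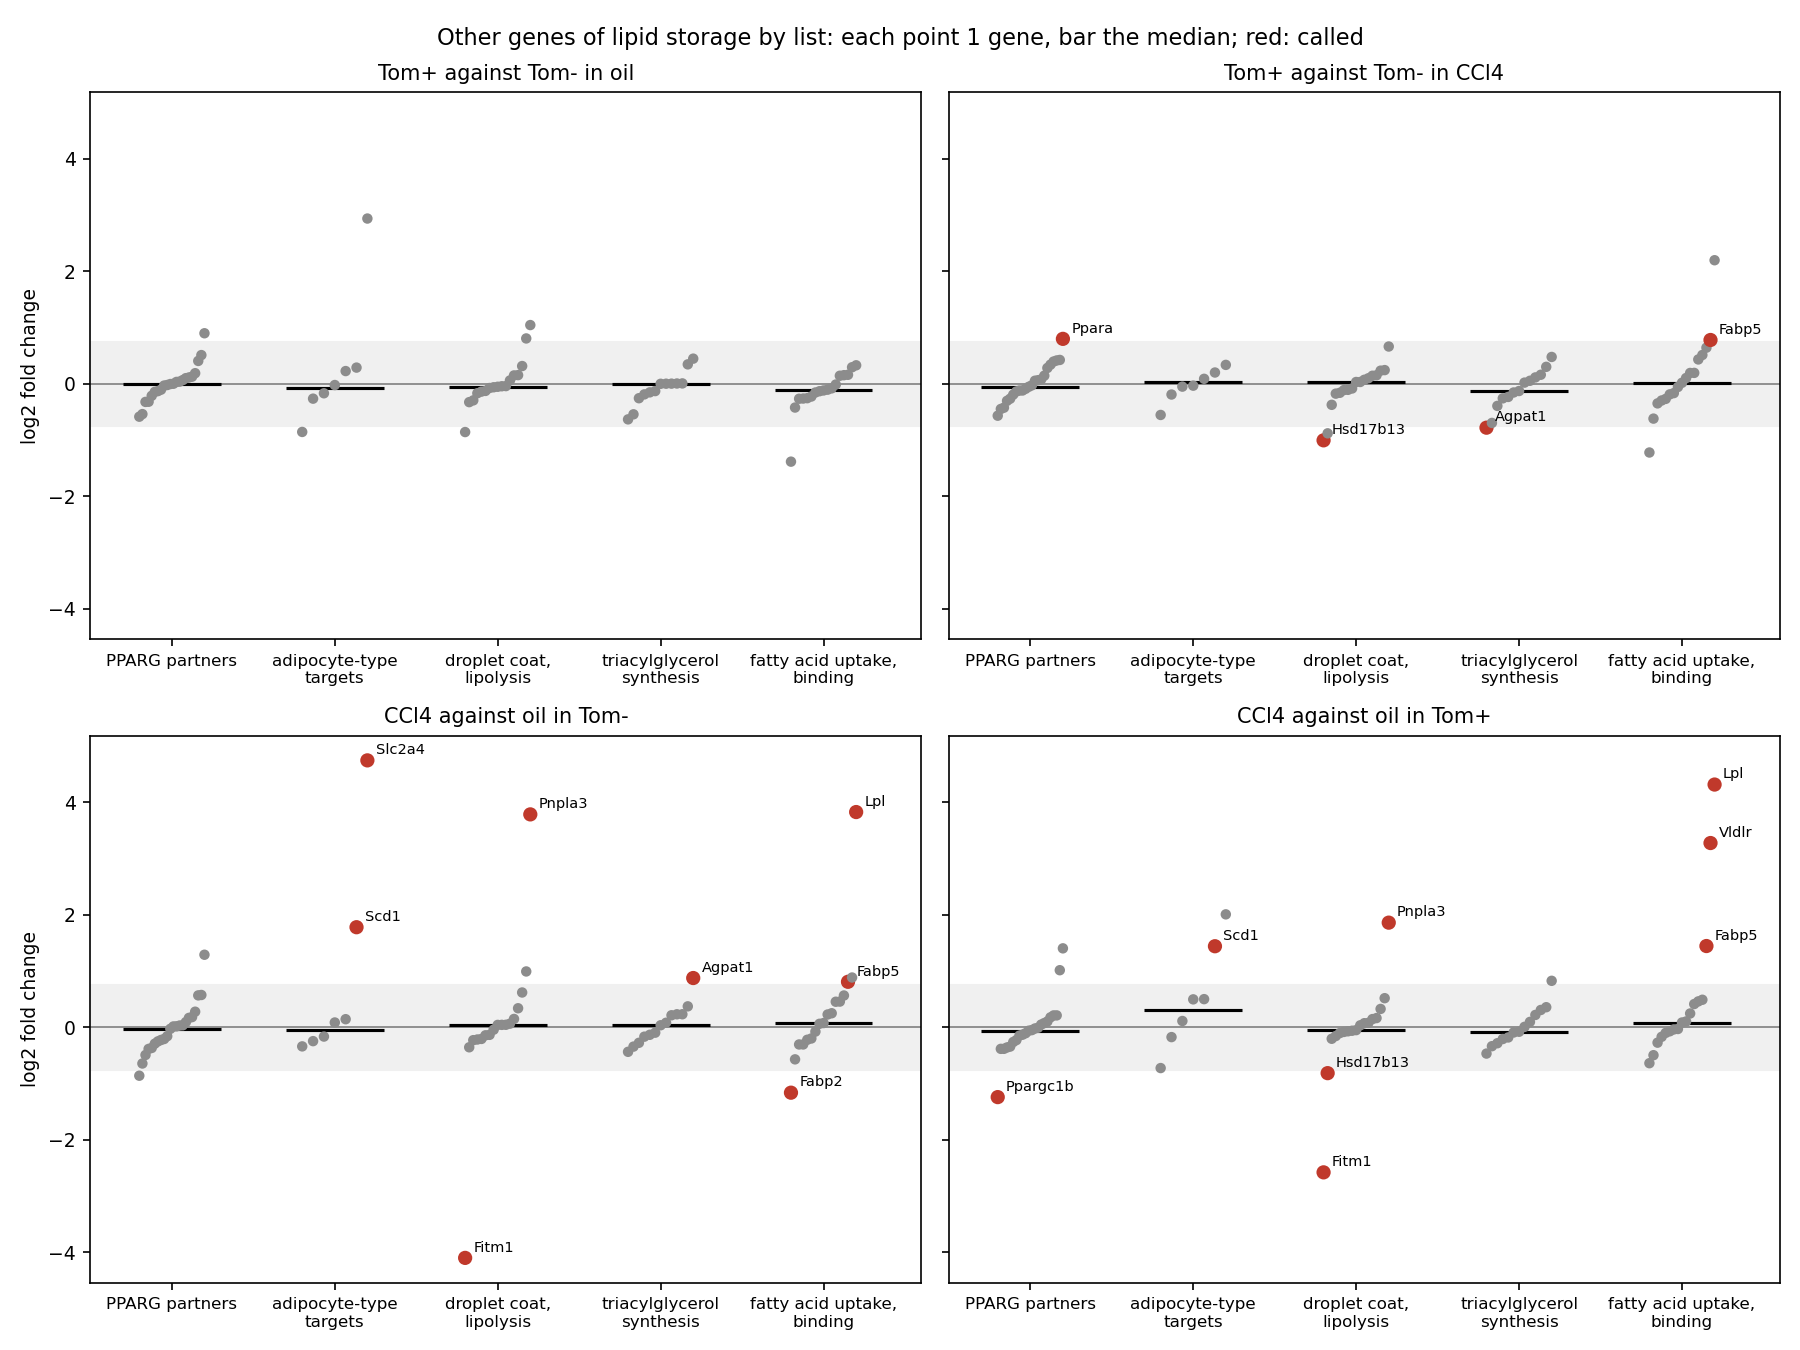
Each point is a tested gene of 1 of the 5 lists, placed by its log2 fold change in 4 comparisons; bars are medians, red points were called and are named, and the grey band marks changes within 0.75; genes not reported here are not drawn. No gene is called in oil, 4 are called between the fractions in CCl4, and 8 of the 9 called genes are drawn in each of the CCl4-against-oil panels.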

How the data were processed

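The table deposited by the authors holds expected counts without normalization, for polyA, strand-specific libraries read against mm10. The submitters' processing notes name fastp (v0.23.2), HISAT2 (v2.1.0) and DESeq2 (v1.42.1). The study's methods give TPMcalculator (v0.0.4) for TPM values, and a program for the deposited counts is not given in the sources used here. Fractions occurred in 30.4% to 32.9% of values above 0 per library, also for Cideb, Plin2, Plin4, Plin5 and Mogat1, so values were rounded, although whole counts had been assumed in the design. Cideb, Plin4, Pparg, Mogat1 and Cidea overlap a gene on the opposite strand, and whether counting used the strand is not given in the sources used here. Of the 54839 features, 54723 (99.8%) matched a symbol.

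Counts were fitted with edgeR (v4.0.16, run in R v4.3.3): filterByExpr (17121 genes), TMM and the robust quasi-likelihood test, in one fit of 12 libraries with a coefficient per group, and Benjamini-Hochberg adjustment over all genes tested. CPM was TMM-normalized and TPM used the deposited lengths. The fit was tested on simulated data. Figures used matplotlib (v3.10.9).

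The genes and lists were chosen with earlier results of these data known. Named are the 10 genes of the set, up to 4 called genes per list and direction with the largest change, the 5 genes most like Pparg, and the reporter. Some genes that this rule names are not reported here. Other genes, namely those called only in an alternative (Ppard, Dgat1, and Vldlr, Fitm1, Pnpla3 and Srebf1 with the block), were chosen after their values were seen. Within a treatment, Tom+ and Tom- libraries with one number in the labels correlated in their deviations in CCl4 (r = 0.415 to 0.613) and oil (r = 0.353 to 0.449), so a replicate block within treatment was fitted as an alternative. Across treatments, libraries with one number correlated at 0.037 to 0.074 in Tom- and at 0.032 to 0.299 in Tom+. These were not taken as pairs, as a correlation above 0.1 was asked of each. Other alternatives were RLE normalization, other filters, DESeq2 (v1.42.0), limma-voom (limma v3.58.1), 6 libraries only, the adjusted p alone, and leaving out each library or both oil libraries of contrary reporter.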

Additional observations from a re-analysis of the deposited data

Results flagged for a closer look

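The Tom+ against Tom- difference in CCl4 was set against that in oil for 2 of the genes described. For Hsd17b13 the log2 fold change in CCl4 minus that in oil was -1.154 (SE 0.155, adjusted p = 0.00738 by edgeR), Tom+ lying below Tom- in 3 of 3 pairs in CCl4. For Pparg it was 1.988 (SE 0.309), Tom+ lying above Tom- in 3 of 3 pairs in CCl4 and in 0 of 3 in oil. This difference is contained in what selected Pparg and is a description.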

How the results depend on the processing

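Under the alternatives, 168 counts stayed within 1.5 times the reported count and 23 did not. With the adjusted p alone, 12 pathway genes were called between the fractions in CCl4 and 17 between CCl4 and oil in Tom-. The shares over all genes were 5.79% and 16.1%. DESeq2 called 1 gene of the set (Pparg) in oil. Pparg was selected on these libraries, so its calls in this paragraph are a description and nothing is read from them. The replicate block called 2 genes of the set (Cd36 and Pparg) and 2 pathway genes in oil, where pair 1 and pair 2 each hold a library of contrary reporter. It changed no other call of the set between the fractions. Fits on 6 libraries called 2 genes of the set (Plin4 and Pparg) between the fractions in CCl4 and 0 between CCl4 and oil in Tom+, and leaving out both oil libraries of contrary reporter left 1 in the latter. Spearman's correlation shared 3 of the 5 genes most like Pparg. Leaving out each library gave 0 to 1 genes of the set between the fractions in CCl4, 0 to 2 between CCl4 and oil in Tom+, and 1 to 5, 0 to 1 and 5 to 10 pathway genes between the fractions in CCl4, in oil and between CCl4 and oil in Tom+. The sign of 4 log2 fold changes between the fractions turned: Cidec in oil (0.067 without Tom+ oil replicate 1, -1.05 without Tom+ oil replicate 3) and, in CCl4, Cd36 (0.059 without Tom- CCl4 replicate 2, -0.62 without Tom+ CCl4 replicate 2), Fabp4 (0.046 without Tom+ CCl4 replicate 1, -0.66 without Tom+ CCl4 replicate 3) and Plin2 (-0.039 without Tom+ CCl4 replicate 3, 0.26 without Tom- CCl4 replicate 3). Signs also turned in some fits for the CCl4-against-oil values of Cd36 in Tom- and of Cidec and Plin4 in Tom+, and for the difference between the fractions of Cidec, Plin4, Plin5 and Mogat1. Over all genes, 336 were called between the fractions in CCl4, against 992 with the adjusted p alone, 538 by DESeq2, 682 with the replicate block and 77 to 352 with a library left out. In oil 0 were called, against 17 by DESeq2, 40 with the block and 0 to 26. The counts for CCl4 against oil were 1356 in Tom- and 897 in Tom+, against 2761 and 1622 with the adjusted p alone and at fewest 902 and 482 with a library left out. For the difference between the fractions, 201 were called, against 583 by DESeq2, 938 with the block and 42 to 253. The cause was not tested.

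Across treatments, where the numbers were not taken as pairs, the replicate block left 3 genes of the set called in Tom- (with Mogat1) and 2 in Tom+. Over all genes, 9.89% were called in Tom- and 6.54% in Tom+. Mogat1 passed the filter mainly through the oil libraries, so its call is a description and nothing is read from it. With 3 libraries a group, genes of few counts such as Mogat1 and Cidec have wide errors, and depth leaves Cidea undetectable in 10 libraries.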
